A study of Mus musculus with 6 samples.

Results

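The genes described here encode proteins that move heme precursors, iron and their cofactors across the mitochondrial membranes, together with an unfoldase that acts on the first enzyme of heme synthesis. They are Slc25a37, Slc25a28, Slc25a38, Slc25a39, Abcb6, Abcb10, Tmem14c and Clpx. All probe sets annotated to 1 of these 8 symbols and to no other gene were taken, which gave 15 of the 45037 probe sets. Slc25a39 was read by 5 of them, Abcb10 by 3, Clpx by 2 and each of the other 5 genes by 1. A further probe set named for Slc25a37 also carried the symbol Gm16867 and was left out; its mean intensity was 11.3 in the controls and 13.1 in the knockouts.

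Expression was measured on Affymetrix arrays in bone marrow cells sorted for the transferrin receptor CD71 and the red cell antigen Ter119. They came from female mice aged 6 weeks. The 3 control mice were Bcl11a +/+, and no Cre was named for them. The 3 knockout mice were Bcl11a fl/fl EpoR-Cre+, with Cre named for the erythropoietin receptor gene EpoR, which red cell precursors express. There was 1 array for each mouse. Bcl11a encodes a repressor that keeps embryonic globin genes silent in adult red cells, and the comparison asked which transcripts of adult erythroid progenitors differ without it. Cre was named for the knockouts alone, so an effect of Cre and one of Bcl11a loss cannot be told apart.

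Heme is made partly inside and partly outside the mitochondrion. Glycine enters for the first step, intermediates leave and return across both membranes, and iron must reach ferrochelatase in the matrix for the last step. Red cell precursors make most of the heme of the body, and loss of several of these carriers causes anemia in animals or in people.

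The level of the arrays was alike, with median intensities between 67.5 and 70.9. The embryonic globin Hbb-y, a known target of Bcl11a, separated the labels, with 73.3 ± 6.91 in control and 19621 ± 434 in knockout mice (SD, n = 3). The brightest probe set of Bcl11a itself had 1492 ± 53.9 and 1298 ± 115 (adjusted p = 0.502, limma). Its other probe sets went both ways, with log2 changes from -0.40 to 0.32, and none had a limma adjusted p under 0.05. The place of the probe sets relative to the deleted part is not stated, so they check nothing. Of the erythroid markers, 7 were analysed here. Their summed intensity was 46541 to 59269 in the controls and 66309 to 75342 in the knockouts, lowest in control mouse 2. Neutrophil markers were also bright, although the sort was for erythroid antigens. Their 7 genes summed to 172880 to 173987 in the controls and 159987 to 166864 in the knockouts, and S100a8 alone had 39933 ± 375 and 38723 ± 634 on arrays whose maxima were 38113 to 40360. Early progenitor markers summed to 10006 to 10105 and 6573 to 8331, and pre-B markers to 6407 to 7847 and 3677 to 4853. No measured marker of these 4 lists had the value 1.00, which is the low value repeated on every array. In such bulk samples, fewer cells of a type and less RNA per cell cannot be told apart, and the part of cell makeup in the results was not tested.

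The 8 genes fell into those that stood higher in the knockouts and those that did not separate. Abcb6, Abcb10, Tmem14c and Slc25a38 had every knockout value above every control value in their brightest probe set, with ratios of mean intensity from 1.37 to 1.81. Slc25a37, Slc25a28, Slc25a39 and Clpx had groups that overlapped, with ratios from 0.94 to 1.10. Values were compared as log2(intensity + 16) with limma, and p-values were adjusted by Benjamini-Hochberg across the whole table, with a threshold of 0.05. None of the 15 probe sets passed, against 0.14% of all probe sets that passed as higher and 0.00666% as lower. The groups did not overlap in 5 of the 15, all with the knockouts higher, against 10.6% of all probe sets with knockouts higher and 8.91% with knockouts lower. At an unadjusted p under 0.05, 4 of the 15 were higher and 0 lower, against 7.21% and 5.21% of all probe sets. When the variances were moderated with an intensity trend and robustly, Abcb6, Abcb10 and Tmem14c passed as higher, 1 probe set each, and 0 of the 15 as lower; that fit called 2.68% of all probe sets higher and 0.531% lower.

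**Figure D1:**
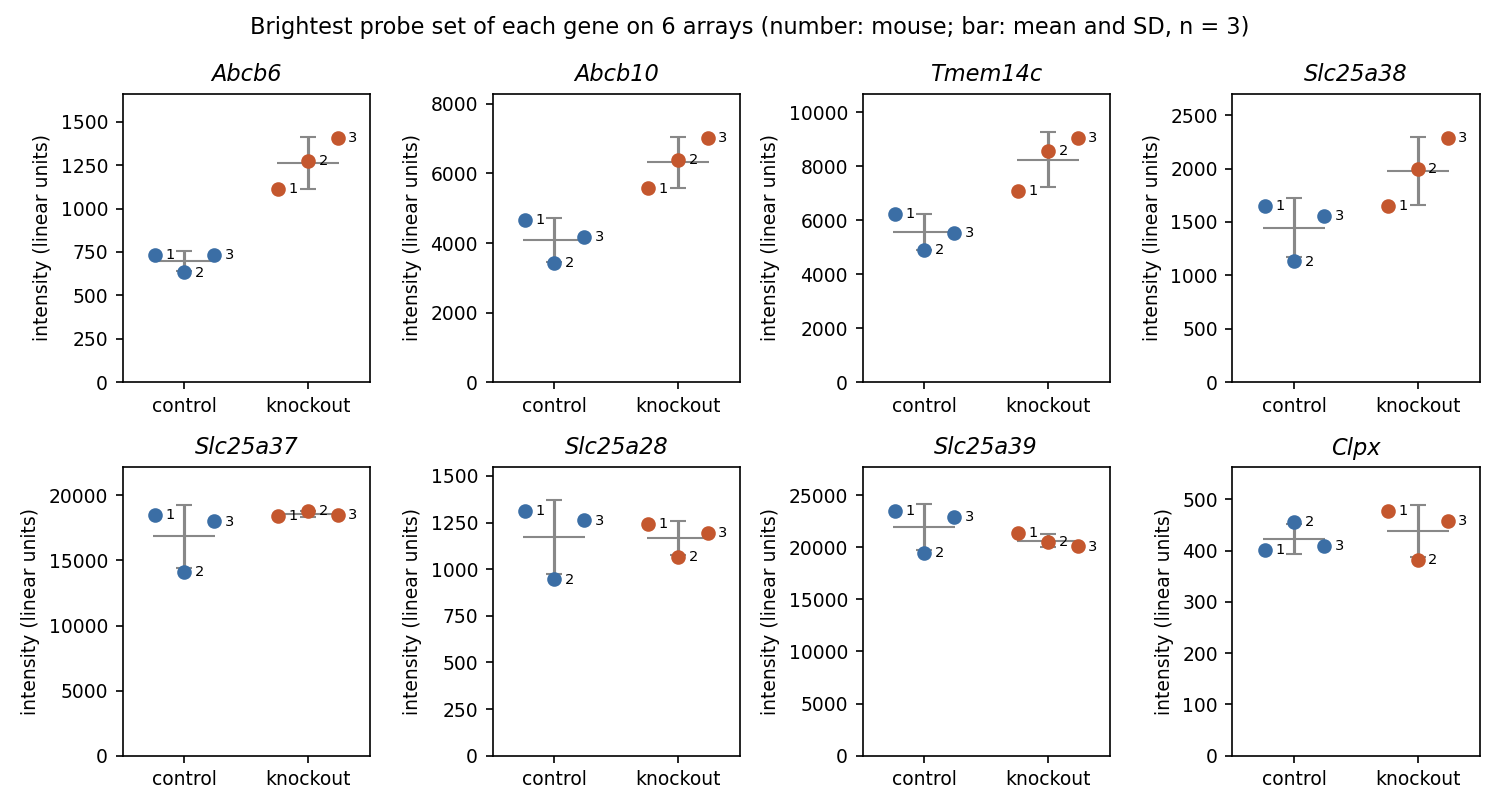
Intensity on a linear scale of the brightest probe set of each gene, for 3 control and 3 knockout mice; points are mice with their numbers, and bars are the mean and SD. In the upper row, Abcb6, Abcb10, Tmem14c and Slc25a38, all knockout points lie above all control points, by less than the height of a point for Slc25a38; in the lower row, Slc25a37, Slc25a28, Slc25a39 and Clpx, they overlap.

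The promoters of Abcb6, Abcb10 and Tmem14c, the 3 genes that passed under the trended fit, are shown because these genes stood higher together. Each run is the 250 bases before the annotated start, written 5′ to 3′ on the strand of the gene, from RefSeq on GRCm38.p6. Capitals mark matches to CCNCNCCC, a motif of Kruppel-like factors, on either strand; overlapping matches run together. That of Abcb6 lies at chr1:75180393-75180642 on the minus strand, that of Abcb10 at chr8:123983123-123983372 on the minus strand and that of Tmem14c at chr13:41016000-41016249 on the plus strand.
Abcb6: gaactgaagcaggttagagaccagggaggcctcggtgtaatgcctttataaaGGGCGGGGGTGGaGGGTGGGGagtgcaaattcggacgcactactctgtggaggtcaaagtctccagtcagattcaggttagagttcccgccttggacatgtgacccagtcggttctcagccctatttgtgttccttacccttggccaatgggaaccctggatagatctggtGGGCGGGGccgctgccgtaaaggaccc
Abcb10: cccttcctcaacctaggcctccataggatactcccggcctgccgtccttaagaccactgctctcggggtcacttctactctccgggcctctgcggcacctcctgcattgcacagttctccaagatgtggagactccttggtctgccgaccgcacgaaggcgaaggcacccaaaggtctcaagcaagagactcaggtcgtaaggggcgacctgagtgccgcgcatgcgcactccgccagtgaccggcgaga
Tmem14c: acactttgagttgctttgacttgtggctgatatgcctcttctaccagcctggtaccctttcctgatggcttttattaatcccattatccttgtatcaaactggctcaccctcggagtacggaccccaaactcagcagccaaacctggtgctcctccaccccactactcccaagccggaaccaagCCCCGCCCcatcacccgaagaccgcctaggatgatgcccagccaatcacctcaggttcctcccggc

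Promoters of 7 of the 8 genes were in the RefSeq table, and Slc25a37 was not matched. CCNCNCCC was found in 6 of the 7, with Abcb10 as the exception, and in 45.9% of the 32851 promoters of the table over the same length. Abcb6 held 4 matches and Tmem14c held 1. The other motifs searched were AGATAA and TGATAA, bound by GATA factors, TGACCA, bound by BCL11A, and TGACTCA, bound by NF-E2 and AP-1. None of the 7 windows held any of these letters on either strand, while they occurred in 9.99%, 7.94%, 11.4% and 4.46% of the table's promoters. These counts describe letters in a short window and say nothing of whether a factor binds. The share of G and C was 41.6% to 77.2% in the 7 windows, against a median of 52.4% in the table. The part of base content in the counts was not tested. The window of Slc25a39 lay within the annotated span of its own gene, and those of Slc25a28, Slc25a38 and Clpx overlapped theirs. The motifs were chosen after the expression values were known.

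Abcb6, an ABC transporter of porphyrins that has been placed in the outer mitochondrial membrane and also carries a blood group antigen at the cell surface, had the largest difference of the 8 genes. Its probe set, 1422524_at, had intensities of 731, 632 and 733 in control mice 1 to 3 and 1111, 1274 and 1409 in knockout mice 1 to 3. The groups were far apart, with the lowest knockout mouse well above the highest control. The means were 699 ± 58.0 and 1265 ± 149 (SD, n = 3), a ratio of 1.81. The log2 change was 0.84 ± 0.13 (SE, 95% interval 0.53 to 1.15, limma adjusted p = 0.0992), and an exact permutation test over the mice gave a two-sided p of 0.1, the lowest possible with 3 against 3. The adjusted p was 0.000435 with the trend and robust moderation, 0.0142 with a pseudocount of 64 and 0.0124 in the brightest 50% of probe sets. In 12 other alternatives Abcb6 did not pass, with adjusted p from 0.0629 to 0.431. These were quantile normalization, median centring, a pseudocount of 1, array weights, 1 probe set per gene, a block for mouse number and leaving out each mouse without the trend.

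Abcb10, an ABC transporter of the inner membrane that erythroid cells need to make hemoglobin and that binds mitoferrin 1, was read by 3 probe sets. The brightest, 1416402_at, had 4664, 3417 and 4169 in the controls and 5569, 6382 and 7032 in the knockouts, so that every knockout mouse stood above every control. The means were 4083 ± 627 and 6328 ± 733 (SD, n = 3), a ratio of 1.55, with a log2 change of 0.64 ± 0.16 (SE, limma adjusted p = 0.221, and 0.00918 with the trended fit). The next, 1416403_at, also separated the groups, with 3863, 2416 and 2896 against 4020, 4818 and 5039. Its log2 change of 0.61 ± 0.19 was close to that of the brightest, with an adjusted p of 0.304 by limma and 0.0890 with the trended fit. The dimmest, 1454265_a_at, had 250, 181 and 191 against 178, 290 and 278, and its groups overlapped because knockout mouse 1 had the lowest value. Its log2 change was 0.23 with a 95% interval from -0.29 to 0.75.

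Tmem14c, an inner membrane protein needed for protoporphyrinogen IX to enter the matrix, had 6229, 4906 and 5532 in the controls and 7091, 8567 and 9060 in the knockouts by its 1 probe set, 1416479_a_at. The groups did not overlap. The means were 5556 ± 662 and 8239 ± 1025 (SD, n = 3), a ratio of 1.48, and the log2 change was 0.57 ± 0.14 (SE, limma adjusted p = 0.229, and 0.00847 with the trended fit). The calls of Abcb6, Abcb10 and Tmem14c in the trended fit were also made when any 1 of the 6 mice was left out, with adjusted p from 0.000793 to 0.00570 for Abcb6, from 0.00231 to 0.0481 for Abcb10 and from 0.00274 to 0.0496 for Tmem14c.

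Slc25a38, the carrier that brings glycine into the matrix and is mutated in a congenital sideroblastic anemia, had 1647, 1131 and 1559 in the controls and 1648, 1994 and 2291 in the knockouts by 1424418_at. The groups met, since knockout mouse 1 and control mouse 1 had nearly the same value, and control mouse 2 was low. The means were 1446 ± 276 and 1978 ± 322 (SD, n = 3). The log2 change was 0.45 ± 0.19 (SE), with a 95% interval from -0.01 to 0.92 and a limma adjusted p of 0.410, or 0.164 with the trended fit. It did not pass in either fit.

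The iron importers did not separate. Slc25a37, mitoferrin 1, the main importer of iron into the mitochondria of erythroid cells, had 18508, 14099 and 17994 in the controls and 18416, 18797 and 18481 in the knockouts by 1417750_a_at. The knockout mice lay close together and near control mice 1 and 3, while control mouse 2 stood apart below. The log2 change was 0.15 with a 95% interval from -0.17 to 0.47 (limma adjusted p = 0.698), which on this scale allows a ratio between 0.89 and 1.38. Without control mouse 2 it was 0.02. Slc25a28, mitoferrin 2, the more widely expressed relative, had 1312, 945 and 1262 against 1241, 1068 and 1194 by 1424776_a_at. The values of the groups mixed, and the log2 change was 0.01 with a 95% interval from -0.37 to 0.38, a ratio between 0.78 and 1.30 (limma adjusted p = 0.994). Its sign turned after quantile normalization and with array weights, to -0.06 and -0.03.

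Slc25a39, a carrier needed for glutathione in mitochondria, had log2 changes below 0 in all 5 of its probe sets, none of which passed. The brightest, 1439410_x_at, had 23477, 19440 and 22918 in the controls and 21373, 20478 and 20087 in the knockouts. The knockouts lay between control mouse 2 and the other controls, and the log2 change was -0.08 with a 95% interval from -0.36 to 0.19, a ratio between 0.78 and 1.14 (limma adjusted p = 0.812). The probe sets 1456176_x_at, 1447783_x_at and 1453111_a_at had changes of -0.09, -0.04 and -0.23, each with overlapping groups. In 1447783_x_at the sign turned on leaving out control mouse 3 or knockout mouse 2, to 0.01 and 0.06. The dimmest, 1440118_at, had 101, 104 and 110 against 129, 22.8 and 63.6. There the knockouts were far more spread than the controls, and the change of -0.66 had a 95% interval from -1.73 to 0.41. These 5 probe sets read the same RNA, so they do not add to the number of mice.

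Clpx encodes the unfoldase partner of the matrix protease ClpP and helps the first enzyme of heme synthesis to take up its cofactor. Its brightest probe set, 1423447_at, had 401, 455 and 409 in the controls and 477, 381 and 457 in the knockouts. The groups mixed fully, and the log2 change was 0.05 with a 95% interval from -0.25 to 0.35 (limma adjusted p = 0.909). The dimmer one, 1439342_at, had 111, 151 and 153 against 150, 151 and 201, a change of 0.25 (limma adjusted p = 0.601), again with overlap.

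**Figure D2:**
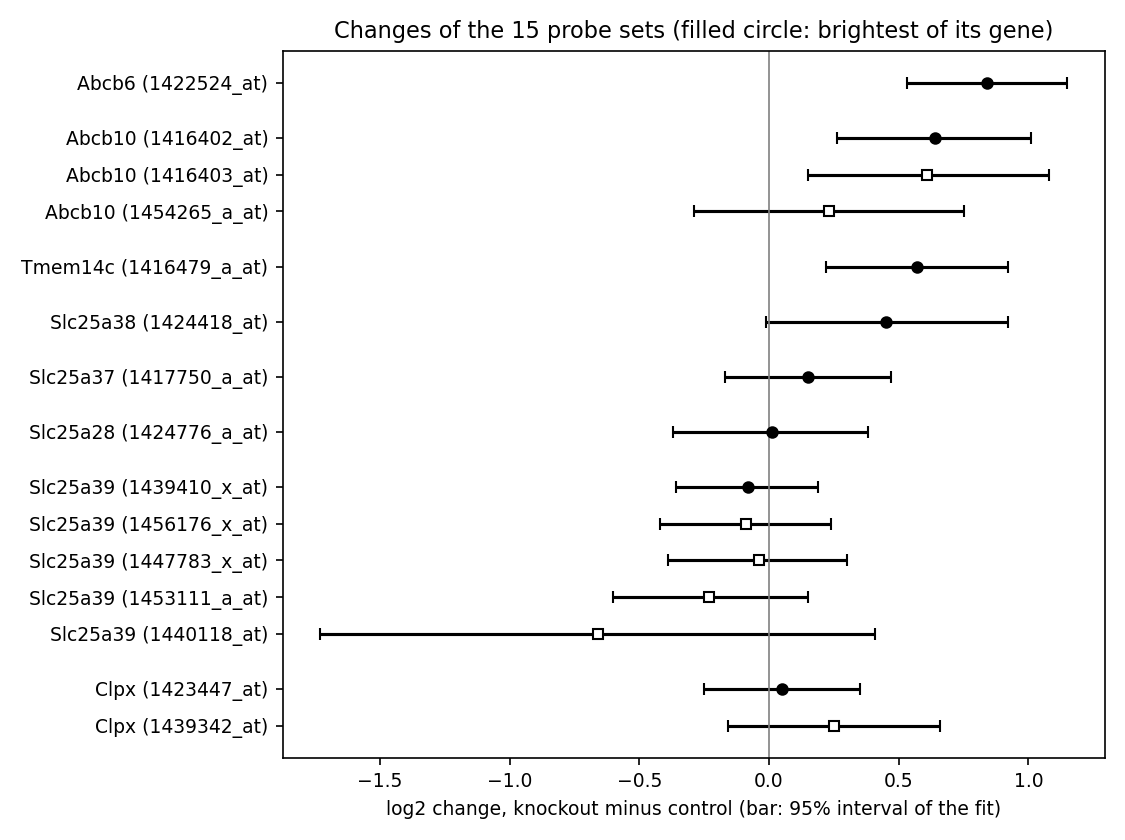
Log2 change, knockout minus control, of the 15 probe sets with the 95% interval of the limma fit (n = 3 mice a group). The intervals of Abcb6, Tmem14c and the 2 brighter probe sets of Abcb10 lie above 0, and those of the other 11 probe sets include 0.

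Signals of Slc25a37 and Slc25a39 stood near the top of the arrays, at percentiles 99.8 and 99.9 of all probe sets in their brightest probe sets, below the array maxima of 38113 to 40360. Whether such signals were compressed was not tested. For Slc25a39, dimmer probe sets at percentiles 97.0 and 98.7 had changes of -0.23 and -0.04, also below 0. Slc25a37 had no dimmer probe set of its own.

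Across the 8 genes, with the brightest probe set of each, the median log2 change was 0.30, with 7 above 0 and 1 below; it was 0.20 without control mouse 2. Over all 18193 genes the median was 0.00. In 4 of the 8 genes the groups did not overlap with the knockouts higher, against 12.4% of all genes and 29.5% of genes in the brightest 10% of probe sets. In the trended fit 3 of the 8 passed as higher, against 3.62% of all genes and 14.1% of genes in the brightest 10%. The 8 genes were not drawn by brightness, and 5 of them lay in that brightest 10%.

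Control mouse 2 was the lowest control for 7 of the 8 genes, Clpx being the exception, and for 12 of the 15 probe sets. For the 8 genes it lay a median of 0.31 below the mean of the other controls on the log2 scale. For all 5354 probe sets with a mean intensity of at least 1000 that median was -0.04, and it was the lowest control in 49.9% of them. The erythroid markers ordered the 6 mice as Abcb10, Tmem14c and Slc25a38 did. Their mean log2 value, less that of the controls, was 0.19, -0.25 and 0.06 in control mice 1 to 3 and 0.34, 0.50 and 0.59 in knockout mice 1 to 3. Abcb10 ran close to this, with 0.20, -0.24 and 0.04 in the controls and 0.46, 0.65 and 0.79 in the knockouts. Slc25a37 followed it in the controls, with 0.14, -0.25 and 0.10, and not in the knockouts, with 0.14, 0.17 and 0.14.

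**Figure D3:**
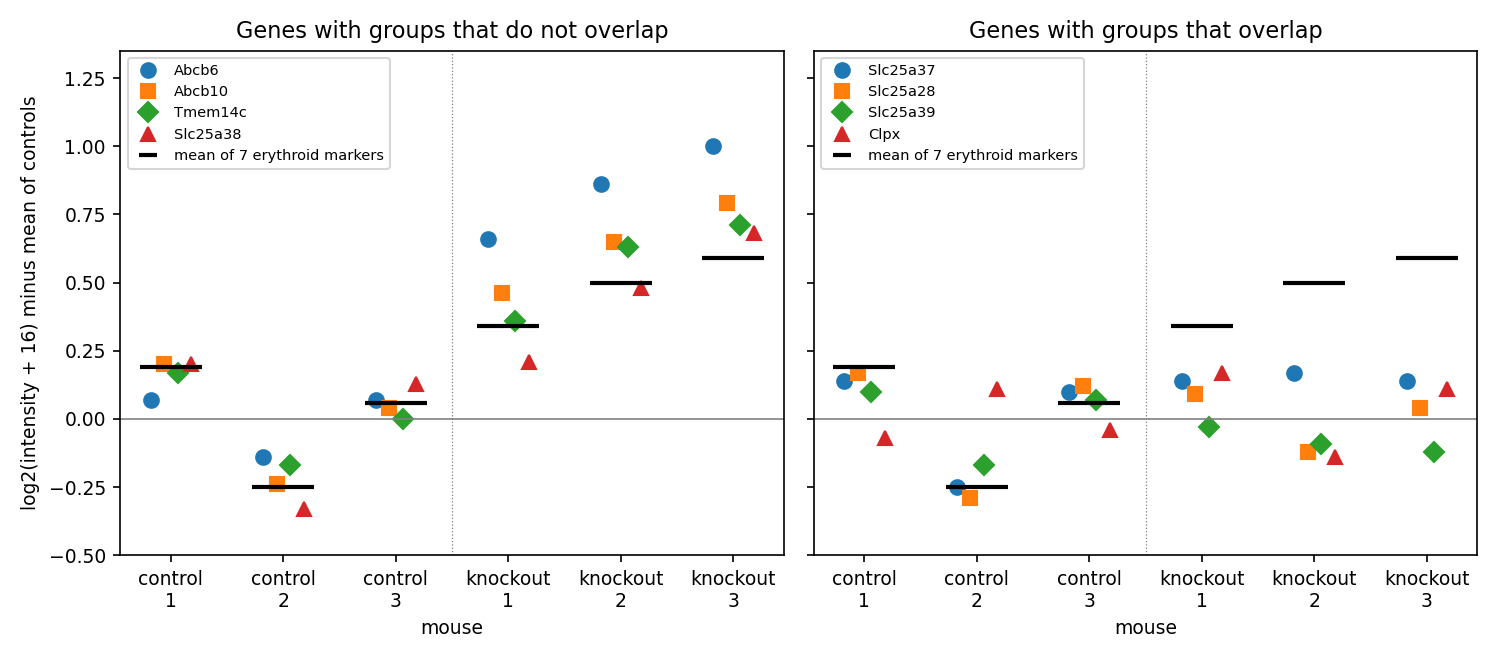
Log2(intensity + 16) of each gene minus its mean over the controls, for the 6 mice; symbols are genes (brightest probe set) and black bars are the mean of 7 erythroid markers. Abcb6, Abcb10 and Tmem14c lie above the marker bar in all 3 knockout mice (left), Tmem14c by as little as 0.02, while Slc25a37, Slc25a28, Slc25a39 and Clpx lie below it in all 3 (right).

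The genes were therefore also set against the mean of the 7 erythroid markers on the same array, a measure added after the data were seen. On it Abcb6 had a log2 change of 0.36 ± 0.07 (SE, n = 3 a group) and Abcb10 one of 0.16 ± 0.03, each with groups that did not overlap. Tmem14c and Slc25a38 had relative changes of 0.09 ± 0.05 and -0.02 ± 0.08 with overlap. Slc25a39 had -0.56 ± 0.11, Slc25a28 -0.47 ± 0.12 and Slc25a37 -0.33 ± 0.08, each with every knockout mouse below every control, and Clpx had -0.43 ± 0.23 with overlap. The exact permutation test gave a two-sided p of 0.1, the smallest possible, for each of the 5 genes with groups apart, or 0.16 adjusted over the 8 genes. The measure takes the markers as reference, and they themselves were higher by 0.48 in the knockouts, with groups apart. A gene without any change of its own would thus stand lower by 0.48 on it, with groups apart by construction. The values below 0 are therefore no sign of a fall in intensity. The markers' own changes ranged from -0.14 for Epor, the erythropoietin receptor, to 0.91 for Rhag. The Cre of the knockouts was named for Epor, and whether it altered the Epor signal was not tested.

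Related proteins were compared within each array, as the difference between the log2 values of their brightest probe sets. There were 5 such pairs. Slc25a38 against Slc25a39 had a difference in log2 change of 0.54 ± 0.18 (SE, 95% interval 0.03 to 1.04), with groups apart. Abcb10 against Abcb6 had -0.20 ± 0.07 (95% interval -0.40 to -0.01), also apart, and the 3 knockout mice gave -0.20, -0.20 and -0.21 relative to the controls' mean. The mitoferrins, Slc25a37 against Slc25a28, had 0.14 ± 0.08 (95% interval -0.07 to 0.36) with overlap. Clpx against Clpp, its protease partner, had 0.31 ± 0.13, and Tmem14c against its relative Tmem14a had 0.36 ± 0.30, both with overlap. By exact permutation, two-sided p was 0.1 for the 2 pairs with groups apart and 0.2 to 0.3 for the rest. Adjusted over the 5 pairs it was 0.25 to 0.30. The smallest p possible with 3 against 3 mice is 0.1, so no pair could pass at 0.05 and the test cannot decide here.

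The enzymes that these carriers serve were read beside them. Of heme synthesis, 8 genes were analysed here. None passed over all probe sets, and 5 passed as higher in the trended fit, which called 3.62% of all genes and 14.1% of genes in the brightest 10% higher. Alad, which forms porphobilinogen, had 3814 ± 475 and 6249 ± 866 (SD, n = 3), a log2 change of 0.71 ± 0.15 (SE, limma adjusted p = 0.181). Cpox and Ppox, the oxidases on either side of the import step of Tmem14c, had changes of 0.48 ± 0.12 and 0.63 ± 0.17. Uros, which closes the porphyrin ring, had 0.57 and Urod, which follows it, 0.49. Other probe sets of these genes had 1.93 for Alad, 0.83 and 0.78 for Cpox, 0.37 for Uros and 0.55 for Urod. Those of Ppox went both ways, with -0.18 and 0.74. The ends of the pathway did not separate, with -0.06 for Alas2, the erythroid first enzyme, and 0.06 for Fech, ferrochelatase. Both were very bright, with control means of 24927 and 21641, and the other 3 probe sets of Fech had changes of 0.20, -0.27 and 0.41. The median of the 8 was 0.48, and the groups did not overlap in 5 of them, all higher, against 12.4% of all genes and 29.5% of genes in the brightest 10%.

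Iron-sulfur clusters are built in the same compartment from the same iron. Of their assembly, 9 genes were analysed here. None passed in either fit. Nfs1, the sulfur donor, had a log2 change of 0.26 ± 0.11 (SE), Isca2 one of 0.27 ± 0.12 and Fdx1, a ferredoxin, one of -0.28 ± 0.11. The median was 0.13, with 6 above 0 and 3 below. The groups did not overlap in 4 of the 9 with the knockouts higher and in 1 with the knockouts lower. Over all genes these shares were 12.4% and 9.22%, and 29.5% were higher in the brightest 10%.

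Of partners and relatives of the carriers, 7 genes were analysed here, and none passed in either fit. Clpp had 447 ± 28.0 and 370 ± 25.6 (SD, n = 3), a log2 change of -0.26 ± 0.11 (SE, limma adjusted p = 0.391). Slc25a40, the close relative of Slc25a39, had -0.21 ± 0.11, and Lonp1, another matrix protease, -0.16 ± 0.09. In these 3 of the 7 genes all knockouts lay below all controls, as in 9.22% of all genes. The median was -0.21, with 1 above 0 and 6 below. Some of the 7 were dim, with a control mean as low as 41.3 for Tmem14a.

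All 9 genes of heme export, sensing and breakdown were measured. None passed over all probe sets. In the trended fit 2 passed as higher, against 3.62% of all genes and 14.1% of genes in the brightest 10%. These were Eif2ak1, the heme-regulated kinase of eIF2 alpha, with 3196 ± 369 and 5451 ± 556 (SD, n = 3) and a log2 change of 0.77 ± 0.14 (SE, limma adjusted p = 0.131), and Bach1, a heme-sensing repressor, with 0.38 ± 0.10 (adjusted p = 0.228). Other probe sets had 0.63, 0.50, 0.45 and 0.18 for Eif2ak1 and 0.17 for Bach1. Flvcr1, the heme exporter, had -0.04 and Hmox1, the inducible heme oxygenase, -0.09. Pgrmc2, a heme-binding protein and the next by p, had 0.14, and the median of the list was -0.04.

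**Figure D4:**
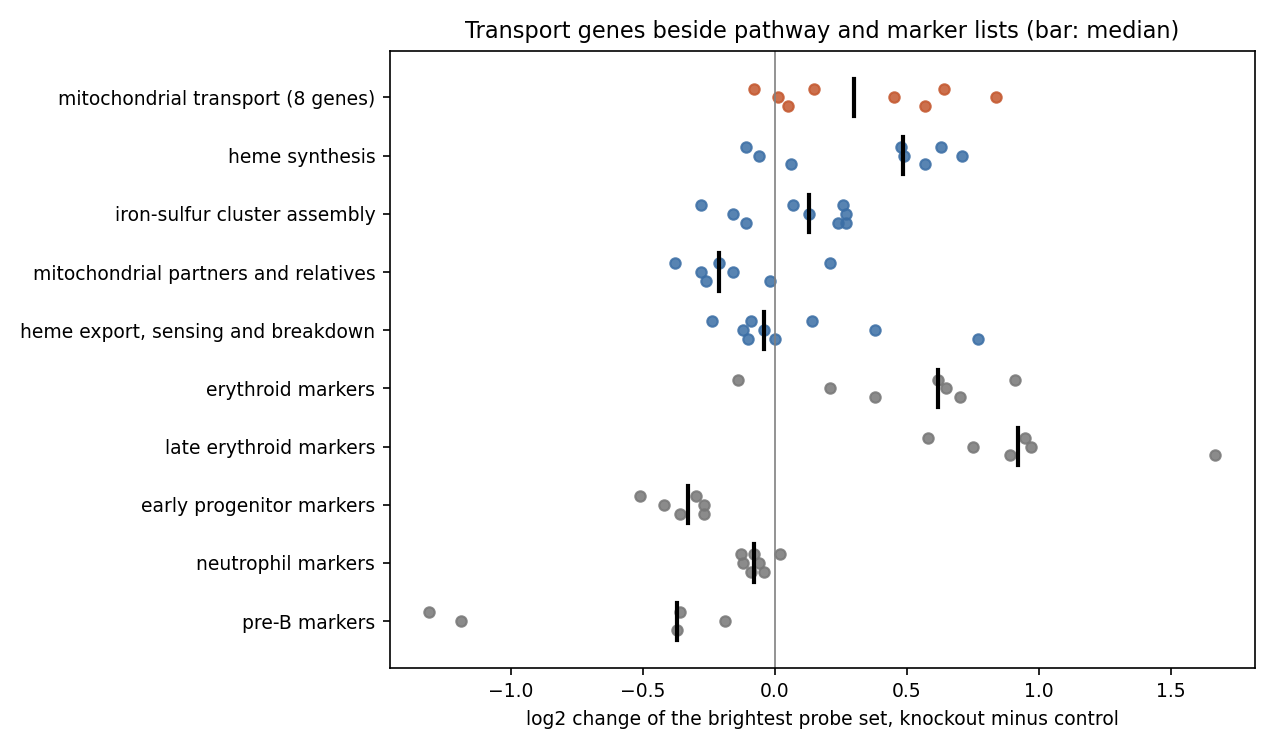
Log2 change of the brightest probe set, knockout minus control, of each measured gene in 10 lists; points are genes and bars are the medians. The 8 transport genes have a median of 0.30 and heme synthesis one of 0.48; erythroid and late erythroid markers have medians of 0.62 and 0.92, and neutrophil, early progenitor and pre-B markers of -0.08, -0.33 and -0.37.

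Markers of erythroid maturation were read in the same mice. All 6 measured late erythroid markers had changes above 0, from 0.58 for Trim10 to 1.67 for Add2, with a median of 0.92, and Add2 passed (limma adjusted p = 0.0407). In the trended fit all 6 passed as higher, against 3.62% of all genes and 14.1% of genes in the brightest 10%. All 6 also had every knockout value above every control value, against 12.4% and 29.5%. Summed, these 6 markers lay between 17071 and 24663 in the controls and between 34196 and 38604 in the knockouts. All 6 measured early progenitor markers had changes below 0, from -0.51 for Cd34 to -0.27. Their part in the changes of Abcb6, Abcb10 and Tmem14c was not tested.

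Among the 10829 other genes in the brighter 50% of probe sets, the nearest profiles over the 6 arrays were sought by the root mean square difference of log2 values less the control mean. This is a description of 6 arrays, and genes that differ by about the same amount are near each other by construction. For Abcb6 they were Dok1 (0.037) and Arid3a (0.044), for Abcb10 Gypc (0.026) and Slc43a3 (0.037), for Tmem14c Mtfr1 (0.038) and Uros (0.039), and for Slc25a38 Ift140 (0.049) and Tnfrsf14 (0.052). For Slc25a37 they were Tcf15 (0.032) and Dnajb5 (0.037), for Slc25a28 Cep20 (0.042) and Adam15 (0.046), for Slc25a39 Elmo1 (0.021) and Slc25a1 (0.025), and for Clpx Qsox1 (0.030) and Serp2 (0.030).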

How the data were processed

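Per the labels, Trizol was used to extract total RNA of sorted cells from 6 mice, and biotinylated cRNA was made by the Affymetrix protocol. The authors deposited 1 linear intensity per probe set and array; how probes were summarised, corrected and scaled is not stated in the labels, and the table held no detection calls. Array medians and interquartile ranges of log2 values differed by at most 0.057 and 0.070, under the limit of 0.1 for renormalizing, so the deposited values were used.

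Symbols came from the platform annotation, which gave 1 symbol for 34945 probe sets, several for 932 and none for 9160. Each gene was represented by the brightest of the probe sets annotated to it alone. Values became log2(intensity + 16), which understates changes of dim probe sets, and were fitted in R 4.3.3 by limma 3.58.1 (eBayes, two-sided, no filter) over all 45037 probe sets. Errors of log2 changes are standard errors of the fit, and those of within-array differences come from 3 values a group. The trended fit used eBayes with trend and robust moderation. The fit was tested on simulated data. The labels number the mice as separate animals; the number of arrays limits the precision. Alternatives were other normalizations, pseudocounts of 1 and 64, a filter, array weights, 1 probe set per gene, a block and leaving out each mouse.

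The members, pathway lists and marker lists were chosen with earlier results of these data known. Named genes are the 8 members, their pair partners, up to 3 genes of each list by p, and the 2 nearest profiles of each member; Uros, Urod, Alas2, Fech, Flvcr1, Hmox1 and the markers were named beside these after their values were seen.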

Additional observations from a re-analysis of the deposited data

How the results depend on the processing

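Under every alternative run, the median log2 change of the 8 genes kept its sign except relative to the erythroid markers, where it was -0.18 (added after the data were seen); leaving out 1 mouse gave 0.20 to 0.39. Member probe sets that passed as higher numbered 0 with the reported settings, 1 with a pseudocount of 64, 1 in the brightest 50% of probe sets and 3 with the trend and robust moderation; leaving out 1 mouse gave 0, and with the trend 3 to 4 (added after the data were seen). None passed as lower under any setting. Over all probe sets, higher calls went from 63 to 38 with a pseudocount of 1, 508 with 64, 697 in the brightest 50%, 1206 with the trend, 27 to 41 without 1 mouse and, with the trend, 1296, 901 and 678 without control mouse 1, 2 or 3 and 979, 656 and 587 without knockout mouse 1, 2 or 3. Lower calls went from 3 to 0, 50, 142, 239, 0 to 1 and 248, 127, 82, 131, 150 and 63 under the same settings in that order, to 5 with array weights and to 7 with 1 probe set per gene.

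Deviations of same-numbered mice from their group means had r = -0.035, -0.014 and -0.040 over all probe sets. Those of differently numbered mice had r from -0.007 to 0.040. All were near 0 over a table with many dim probe sets, so the check cannot decide whether a number marks a shared litter or day. With the replicate block 14 probe sets passed as higher and 0 as lower, and 0 of the 15 passed.

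Signs turned for Slc25a28 after quantile normalization (-0.06), with array weights (-0.03), without control mouse 2 (-0.14), knockout mouse 1 (-0.04) or knockout mouse 3 (-0.01; range without 1 mouse -0.14 to 0.09), and relative to the erythroid markers (-0.47). They turned for Slc25a39 1447783_x_at without control mouse 3 (0.01) or knockout mouse 2 (0.06; range -0.16 to 0.06), for Clpx without knockout mouse 1 (-0.01; range -0.01 to 0.14), and relative to the markers for Slc25a37 (-0.33), Slc25a38 (-0.02) and Clpx (-0.43). In the fits without 1 mouse the trend does not alter log2 changes, so these were the same with it by construction. The differences within the 5 pairs kept their sign throughout, with ranges without 1 mouse of 0.07 to 0.19 for the mitoferrins, 0.41 to 0.69 for Slc25a38 against Slc25a39, -0.26 to -0.14 for Abcb10 against Abcb6, 0.24 to 0.42 for Clpx against Clpp and 0.16 to 0.59 for Tmem14c against Tmem14a. Relative to the markers, a gene without change of its own falls below 0 because the markers were higher in the knockouts. The causes were not tested. A planned pair was not run.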
